A study of Caenorhabditis elegans with 18 samples.

Results

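The sperm genes are the protein-coding genes whose WormBase symbol begins with msp-, ssp-, spe- or nspd- followed by a number, and 80 of the 23368 genes counted in this Caenorhabditis elegans RNA-seq series met that rule. They comprise 30 msp genes, 29 spe genes, 12 ssp genes and 9 nspd genes, chosen by name and not by their values. The msp genes encode major sperm proteins, the most abundant proteins of nematode sperm. Major sperm protein assembles into the filaments that drive the crawling of the sperm, and when released it also signals to oocytes to mature and to the gonadal sheath to contract. The ssp genes encode small sperm-specific proteins, and the nspd genes encode a group of nematode-specific peptides found mainly in sperm. The spe genes were named for mutants in which spermatogenesis or sperm function is defective, so they include genes for spermatid assembly, spermatid activation, fertilisation and the first steps of embryogenesis. A self-fertile hermaphrodite makes its sperm around the last larval stage and then switches to oocytes for the rest of its life, so sperm transcripts mark a short window of germline development as well as the presence of males.

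RNA was taken from whole animals at the early adult stage in 6 groups of 3 libraries each, described as biological triplicates, with at least 1000 animals collected for each. The strains were the wild type N2 (WT), nhr-45(tm1307) and nhr-178(gk1005), the mutants each carrying an allele of a nuclear hormone receptor gene. After an 18 h arrest as first-stage larvae, the animals of every group were raised on agar with E. coli HT115 that held either the solvent DMSO or 0.3 µM antimycin A in DMSO. Antimycin A blocks complex III of the mitochondrial respiratory chain. The labels give 1 allele per receptor and no sex, so nothing here separates an allele from the rest of its strain's background, and the share of males is not stated.

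Levels are given as CPM, which are counts scaled to a common library size with the trimmed mean of M-values (TMM), and group levels as mean ± SD of 3 libraries. Library totals ran from 1772887 to 9488037 counts, the shallowest being nhr-45 antimycin replicate 2 and WT antimycin replicate 1, which held 3143437. A library with 0 counts of a gene can still hold up to 3 counts' worth, which came to between 0.325 and 1.61 CPM depending on the library. The targeted genes did not separate the mutant libraries from the others. nhr-45 lay between 3.33 and 7.57 CPM in the 6 nhr-45 libraries and between 4.51 and 8.15 CPM in the other 12. nhr-178 had 0 to 2 counts in the nhr-178 DMSO libraries but 7 or 8 in each nhr-178 antimycin library, against 2 to 11 in WT. Where each allele's lesion lies in its gene is not given in the sources used here, so these whole-gene counts do not check the labels.

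Of the 80 members, 48 passed the filter on low counts and were tested: 23 msp, 6 ssp, 9 nspd and 10 spe genes. Only 25 of these 48 would have passed without the nhr-45 antimycin libraries, so 23 members entered the test through the group in which they were high. The 32 untested members held 387 counts in the nhr-45 antimycin libraries and between 24 and 82 in each other group. spe-9 and spe-19 had no count in any library, and 14 members had under 10 counts over all 18 libraries, those 2 included. In whole-animal RNA, fewer sperm-forming cells and less RNA in each such cell cannot be told apart.

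The msp genes were taken as a sum because their copies are nearly identical and reads may be split between them. Their sum differed between groups and also between the libraries of a group. The SD within a group was lowest in nhr-45 antimycin, at 10.4% of the mean, and highest in nhr-178 DMSO, at 104%. The 3 WT DMSO libraries held 33.1, 15.3 and 30.4 CPM of summed msp, and the WT antimycin libraries held 64.1, 60.3 and 41.4 CPM. The nhr-45 DMSO libraries held 92.7, 143 and 141 CPM, and the nhr-45 antimycin libraries held 682, 777 and 841 CPM. Every nhr-45 antimycin library was therefore above every library of the other 5 groups. The nhr-178 DMSO libraries were lowest, at 0.651, 7.43 and 2.16 CPM, from 3, 49 and 13 counts. The nhr-178 antimycin libraries held 17.1, 22.8 and 10.01 CPM.

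From lowest to highest, the summed msp level was 3.41 ± 3.56 CPM in nhr-178 DMSO, 16.7 ± 6.43 in nhr-178 antimycin, 26.3 ± 9.58 in WT DMSO, 55.2 ± 12.2 in WT antimycin, 126 ± 28.5 in nhr-45 DMSO and 767 ± 79.9 CPM in nhr-45 antimycin (SD, n = 3). Neighbours in this order did not overlap, except that nhr-178 antimycin reached 22.8 CPM and WT DMSO began at 15.3 CPM. With antimycin the mean was 2.10-fold that of DMSO in WT, 6.11-fold in nhr-45 and 4.88-fold in nhr-178. In DMSO, nhr-45 was 4.78-fold higher than WT and nhr-178 was 7.70-fold lower. In antimycin, nhr-45 was 13.9-fold higher and nhr-178 was 3.31-fold lower. The libraries of the 2 groups did not overlap in any of these 7 comparisons, and the sum was given no p because its members were named with results of these data known. Without nhr-178 DMSO replicate 2, which held 49 of that group's 65 msp counts, the sum was higher with antimycin in nhr-178 by 3.57 on the log2 scale in place of 2.29, and lower in nhr-178 DMSO than in WT DMSO by a log2 ratio of -4.22 in place of -2.94. Even in nhr-45 antimycin the msp genes made up only 0.0683 to 0.0865% of a library's counts.

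**Figure D1:**
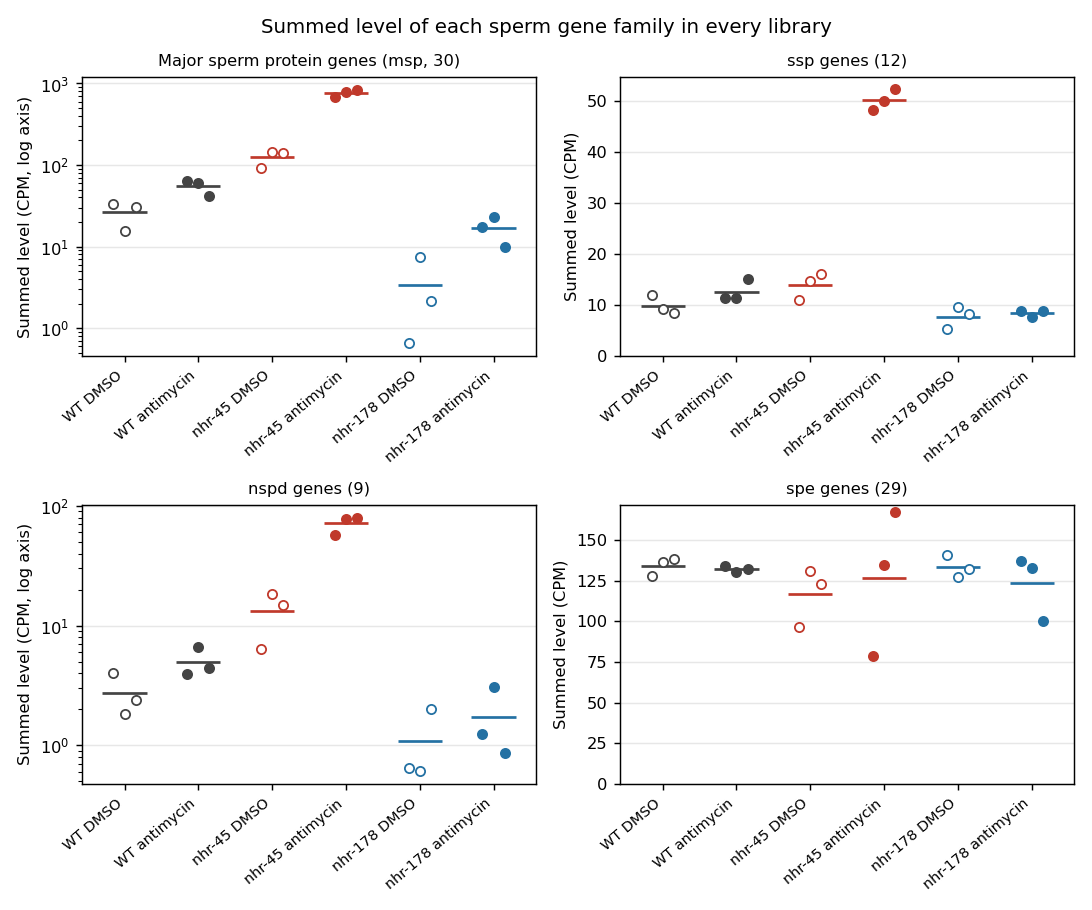
Summed level (CPM) of the 30 msp, 12 ssp, 9 nspd and 29 spe genes in each of the 18 libraries, on a log axis for msp and nspd and on a linear axis from 0 for ssp and spe. Points are libraries (open, DMSO; filled, antimycin; grey, WT; red, nhr-45; blue, nhr-178) and bars are means of 3 libraries. The 3 nhr-45 antimycin libraries are the highest for msp, ssp and nspd, while the spe sums of all 6 groups overlap.

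The msp genes lie in groups on 2 chromosomes. In the WBcel235 annotation, 12 are on chromosome II between 4785898 and 5810330 and 18 on chromosome IV between 5055631 and 10143740, and 28 of the 30 have an exon length of 384 bases. The chromosome II genes summed to 7.91 ± 2.88 CPM in WT DMSO and 247 ± 28.7 CPM in nhr-45 antimycin. The chromosome IV genes summed to 18.4 ± 6.84 CPM and 520 ± 53.7 CPM in the same groups (SD, n = 3). The sums of both chromosomes differed in the same direction: with antimycin in nhr-45 the ratio to DMSO was 6.18 on chromosome II and 6.08 on chromosome IV. In nhr-45 against WT in antimycin the ratios were 17.4 and 12.7.

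msp-57 (WBGene00003450, chromosome IV, 5062578 to 5062961) was the highest msp gene in every group, and per kilobase of exon it stood at 18.1 CPM in WT DMSO and 540 CPM in nhr-45 antimycin. It was at 9.49, 3.93 and 7.47 CPM in the WT DMSO libraries and at 21.5, 17.7 and 8.25 CPM in the WT antimycin libraries, which overlap. It was at 27.4, 38.9 and 45.6 CPM in nhr-45 DMSO and at 216, 182 and 224 CPM in nhr-45 antimycin. The nhr-178 mutants had 0, 1.67 and 0.499 CPM of it when raised on DMSO and 4.34, 4.52 and 2.57 CPM when raised on antimycin. Each nhr-45 library was thus above all 6 WT libraries for msp-57, and each nhr-178 DMSO library was below all of them.

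The share of msp-57 in the family moved little beside the family sum. It supplied 26.4% of the msp counts in WT DMSO (exact 95% interval 23.2 to 29.9%), 26.99% in WT antimycin, 29.3% in nhr-45 DMSO and 28.6% in nhr-45 antimycin (27.8 to 29.4%). In nhr-178 it supplied 21.5% of only 65 counts in DMSO (12.3 to 33.5%) and 22.3% of 355 counts in antimycin (18.0 to 26.9%). These intervals cover counting error only. The next highest members over all libraries were msp-40 (WBGene00003435, chromosome II, 4825414 to 4825797), msp-64 (chromosome II, 5809947 to 5810330), msp-76 (chromosome IV, 9689015 to 9689398), msp-78 and msp-51. All 30 msp genes had a count in nhr-45 antimycin, against 24 in WT DMSO and 14 in nhr-178 DMSO.

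msp-40 was at 2.02, 1.18 and 2.27 CPM in WT DMSO, 10.7, 14.3 and 12.3 CPM in nhr-45 DMSO and 77.6, 75.3 and 87.8 CPM in nhr-45 antimycin. In nhr-178 DMSO it had counts in only 1 library, at 0.909 CPM. msp-64 was at 2.73, 1.70 and 3.35 CPM in WT DMSO and at 46.97, 57.5 and 63.3 CPM in nhr-45 antimycin. Both therefore took the order seen for the sum, with nhr-45 antimycin highest and nhr-178 DMSO lowest. msp-59 (chromosome IV, 5312728 to 5313111) had about the same level in WT antimycin, at 3.82 ± 0.651 CPM, as in nhr-45 DMSO, at 3.75 ± 1.02 CPM, and rose to 41.1 ± 9.75 CPM in nhr-45 antimycin (SD, n = 3). The 7 untested msp genes, the highest of them msp-152, held 120 counts in nhr-45 antimycin and between 3 and 26 in each other group.

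**Figure D2:**
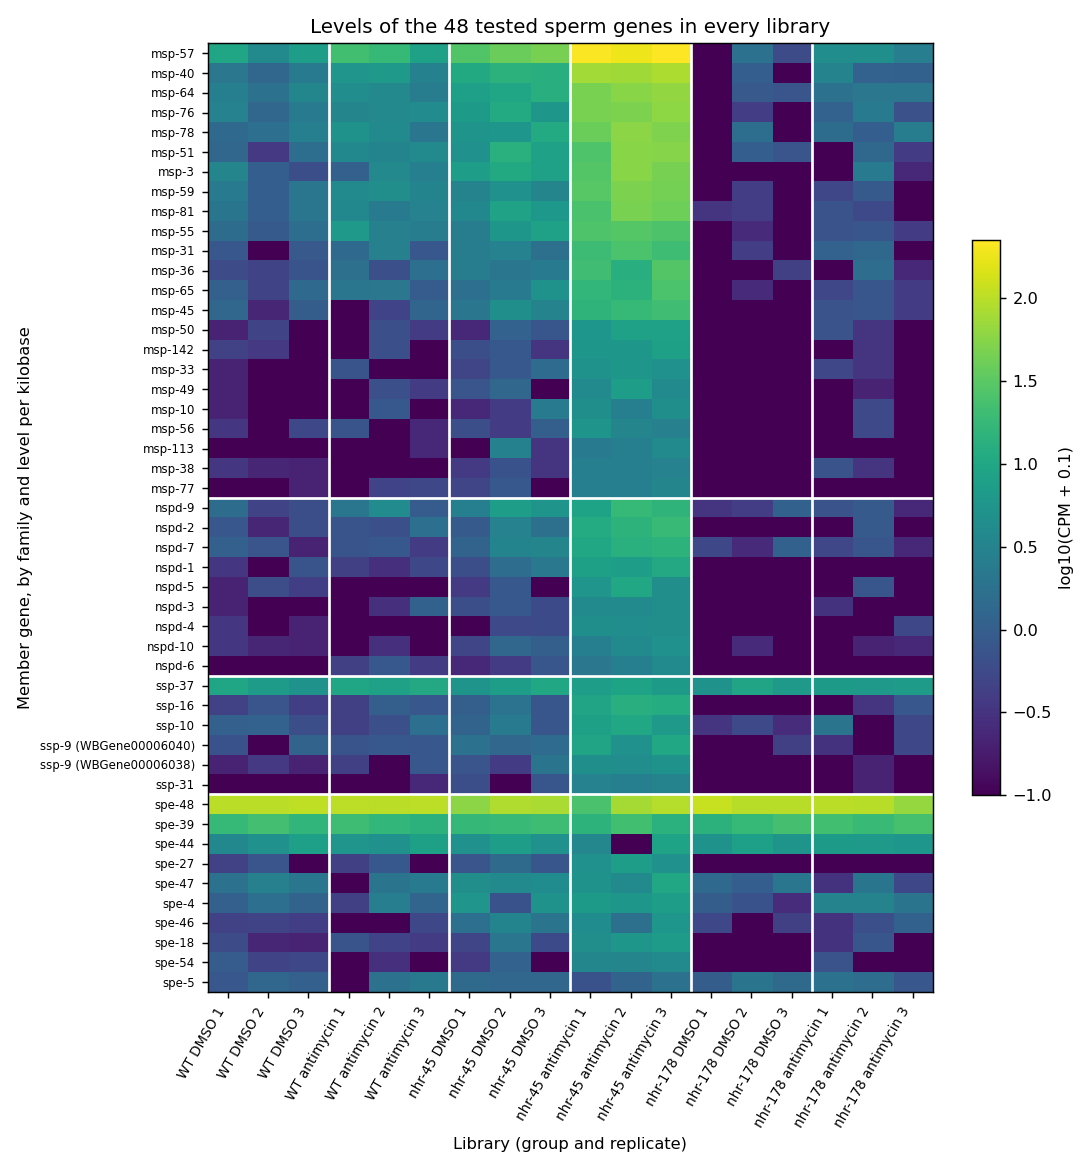
Level of each of the 48 tested sperm genes (rows, ordered by family and by level per kilobase) in each of the 18 libraries (columns), as log10 of CPM plus 0.1. Most msp, nspd and ssp rows are brightest in the 3 nhr-45 antimycin columns and darkest in the 3 nhr-178 DMSO columns, while spe-39 and ssp-37 change little in shade and spe-48 is at its lowest, 24.0 CPM, in nhr-45 antimycin replicate 1.

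The ssp family split into 1 steady member and several that followed the msp genes. ssp-37 was the highest, at 7.17 ± 2.17 CPM in WT DMSO, 9.31 ± 1.14 in WT antimycin, 7.47 ± 2.23 in nhr-45 DMSO, 7.45 ± 1.06 in nhr-45 antimycin, 6.81 ± 1.99 in nhr-178 DMSO and 6.59 ± 0.140 CPM in nhr-178 antimycin (SD, n = 3), and it passed no test. ssp-16 was at 0.356, 0.655 and 0.325 CPM in WT DMSO, 0.932, 1.79 and 0.699 CPM in nhr-45 DMSO, and 8.87, 12.4 and 11.8 CPM in nhr-45 antimycin. ssp-10 was at 0.846 ± 0.269 CPM in WT DMSO and at 8.07 ± 2.03 CPM in nhr-45 antimycin. The symbol ssp-9 belongs to 2 nearby genes on chromosome IV, WBGene00006038 and WBGene00006040, and the latter was at 0.558 ± 0.542 CPM in WT DMSO and 7.94 ± 2.76 CPM in nhr-45 antimycin. The summed ssp level was 9.87 ± 1.89 CPM in WT DMSO, 13.9 ± 2.65 in nhr-45 DMSO and 50.2 ± 2.03 CPM in nhr-45 antimycin, and its nhr-45 antimycin libraries, from 48.3 to 52.3 CPM, lay above all others.

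The nspd family has 9 genes of 213 to 222 exon bases on chromosomes I to IV, and all 9 were highest in nhr-45 antimycin. Their sum was 4.03, 1.83 and 2.38 CPM in the WT DMSO libraries, 6.39, 18.5 and 14.9 CPM in nhr-45 DMSO and 56.8, 77.4 and 79.9 CPM in nhr-45 antimycin. The nhr-178 mutants had 1.08 ± 0.789 CPM without the inhibitor and 1.72 ± 1.17 CPM with it (SD, n = 3). nspd-9, the highest per kilobase in the mean of all 18 libraries, was at 0.786 ± 0.557 CPM in WT DMSO, 5.16 ± 2.40 CPM in nhr-45 DMSO and 13.6 ± 4.44 CPM in nhr-45 antimycin, where nspd-2 reached 14.6 ± 3.24 CPM. nspd-1 had 8 counts in WT DMSO, 141 in nhr-45 antimycin and none in any of the 6 nhr-178 libraries. nspd-5 had 8 counts in WT DMSO, none in WT antimycin, 7 in nhr-45 DMSO and 91 in nhr-45 antimycin.

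The spe genes are defined by mutants and not by sequence, and they did not behave as 1 group. Their sum was 134, 132, 117, 127, 134 and 123.5 CPM on average in WT DMSO, WT antimycin, nhr-45 DMSO, nhr-45 antimycin, nhr-178 DMSO and nhr-178 antimycin, with overlapping libraries throughout. Most of it came from spe-48 and spe-39. spe-48 was at 104 ± 4.29 CPM in WT DMSO, 77.3 ± 16.1 CPM in nhr-45 DMSO and 65.7 ± 37.1 CPM in nhr-45 antimycin, whose libraries stood at 24.0, 78.0 and 95.2 CPM (SD, n = 3). spe-39, which acts in vesicle trafficking and is needed for the membranous organelles of spermatids, lay between 16.6 ± 4.25 and 21.4 ± 2.51 CPM in the group means. Without these 2 genes, a subset chosen after their values were seen, the spe sum was 12.2 CPM in WT DMSO, 12.5 in WT antimycin, 21.2 in nhr-45 DMSO, 44.5 in nhr-45 antimycin, 10.3 in nhr-178 DMSO and 13.6 CPM in nhr-178 antimycin.

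Among the spe genes, spe-44 encodes a transcription regulator of sperm genes. It was at 3.56, 4.85 and 7.58 CPM in WT DMSO and at 3.43, 0 and 8.58 CPM in nhr-45 antimycin, and passed no test. The 0 was in the shallowest library, where 3 counts come to 1.61 CPM. A step in forming spermatids is the packing of major sperm protein into fibrous bodies held by membranous organelles. Of 9 spe genes of this step, 4 were tested. spe-4, a presenilin-family gene of that organelle, was at 0.949, 1.57 and 1.08 CPM in WT DMSO, 5.46, 0.597 and 5.12 CPM in nhr-45 DMSO, and 6.63, 5.92 and 7.38 CPM in nhr-45 antimycin. It had 15, 27 and 13 counts in nhr-178 antimycin, against 4, 4 and 1 in nhr-178 DMSO and 1, 14 and 8 in WT antimycin. spe-18, needed to assemble fibrous bodies, was at 0.238 ± 0.205 CPM in WT DMSO and 5.72 ± 1.25 CPM in nhr-45 antimycin, and had no count in nhr-178 DMSO. spe-5, a proton pump subunit gene whose exons overlap those of ift-20, stayed between 0.955 ± 0.234 and 1.34 ± 0.475 CPM in the group means. spe-15, a myosin gene, had 14 counts in nhr-45 antimycin and 2 to 10 in each other group.

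Spermatid activation turns the round spermatid into a crawling cell, and 3 of the 8 spe genes of this step were tested. spe-47, which encodes a protein with a major sperm protein domain, was at 1.66, 2.75 and 1.95 CPM in WT DMSO, 4.39, 3.88 and 4.19 CPM in nhr-45 DMSO and 5.09, 3.76 and 9.95 CPM in nhr-45 antimycin. spe-46 was at 0.358 ± 0.0342 CPM in WT DMSO, 2.20 ± 0.820 CPM in nhr-45 DMSO and 3.81 ± 2.04 CPM in nhr-45 antimycin (SD, n = 3). spe-27 was at 0.337 ± 0.328 CPM in WT DMSO and 5.73 ± 1.56 CPM in nhr-45 antimycin, with no count in either nhr-178 group. The exons of spe-27 overlap those of C06E7.88 on the same strand, so its counts could belong to either gene. spe-54, for which no role is given here, had 14 counts in WT DMSO, 1 in WT antimycin, 9 in nhr-45 DMSO and 57 in nhr-45 antimycin.

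The 8 spe genes that act when sperm and egg meet were too low to test. They held 62 counts together in the 3 nhr-45 antimycin libraries and 46 in the other 15. spe-36, which encodes a secreted protein needed for fertilisation, gave 33 of those 62, at 2.48, 2.15 and 1.37 CPM, and 5 counts in WT DMSO. Its exons overlap F12F6.1 and F40F11.3. The channel gene spe-41 had 15 counts in nhr-45 antimycin and 0 in WT DMSO, and spe-38 had 4 and 2. In nhr-178, spe-38 had 2, 0 and 2 counts in the DMSO libraries and 5, 0 and 1 in the antimycin libraries. The exons of spe-38 overlap those of impt-1 on the same strand. spe-9, a transmembrane protein gene of the sperm surface, had none anywhere. spe-11, which supplies the embryo with a paternal factor, had 7 counts in nhr-45 antimycin and 9 in the other 15 libraries.

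Antimycin in WT was the first comparison, asking how the wild type responds to the inhibitor. None of the 48 tested members was called at an adjusted p below 0.05 in edgeR's quasi-likelihood test, although the summed msp level did not overlap between the groups. Of all 10981 genes tested, 3.01% were called in this comparison. At an unadjusted p below 0.05 there were 10 members, beside 14.5% of all tested genes, and DESeq2 called 2, beside 3.71%. The 23 tested msp genes had a median log2 difference of 1.12, with 19 of 23 above 0, beside 0.0090 over all genes. msp-57 had a log2 difference of 1.12 ± 0.33 (SE, edgeR adjusted p = 0.0710) and msp-51 of 1.77 ± 0.57 (adjusted p = 0.1003). Without WT antimycin replicate 3, 2 members were called, and without WT DMSO replicate 1, 1 was. msp-57 was called in both cases, with a log2 difference of 1.47 (edgeR adjusted p = 0.0127) and 1.40 (adjusted p = 0.0461). Its adjusted p was 0.000191 with no filter on low counts.

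Antimycin in nhr-45 mutants gave 39 higher calls among the 48 tested members and no lower call, where 15.2% of all tested genes were called higher and 8.33% lower. They were 22 of 23 msp genes, 9 of 9 nspd genes, 5 of 6 ssp genes and 3 of 10 spe genes. Since 23 members were tested only through the nhr-45 antimycin libraries, the 25 that would pass without them give the count to read: 17 of these 25 were called higher. The 22 msp genes had log2 differences from 2.30 in msp-3 to 3.58 in msp-142. Of these 2, msp-142 was tested only through the nhr-45 antimycin libraries, so the top of the range is partly set by the filter. msp-57 rose by 2.49 ± 0.29 on the log2 scale (SE, edgeR adjusted p = 2.8e-07), msp-40 by 2.69 ± 0.30 (adjusted p = 1.57e-07) and msp-59 by 3.42 ± 0.36 (adjusted p = 4.37e-08). The median over those 25 was 2.45, beside 0.0031 over all genes.

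Outside the msp genes, ssp-16, nspd-5, spe-27, spe-18 and spe-54 were tested only through the nhr-45 antimycin libraries, so their higher level there is partly set by the filter. ssp-16 rose with antimycin in nhr-45 by 3.20 ± 0.53 on the log2 scale (SE, edgeR adjusted p = 7.75e-05) and nspd-2 by 3.001 ± 0.554 (adjusted p = 0.000279). nspd-5 rose by 4.04 ± 0.83 (edgeR adjusted p = 0.00108) and nspd-9 by 1.36 ± 0.48 (adjusted p = 0.0377). The 3 spe genes called were spe-27 at 2.58 ± 0.71 (adjusted p = 0.0110), spe-18 at 2.54 ± 0.67 (adjusted p = 0.00752) and spe-54 at 2.84 ± 0.82 (adjusted p = 0.0133). spe-48 differed by -0.26 ± 0.28 (edgeR adjusted p = 0.529) and ssp-37 by -0.01 ± 0.30 (adjusted p = 0.978). The calls of spe-27, spe-18 and spe-54 were lost without nhr-45 DMSO replicate 1, with edgeR adjusted p of 0.0556, 0.0529 and 0.0687. The call of nspd-9 was lost without nhr-45 DMSO replicate 1 or 3 or nhr-45 antimycin replicate 2 or 3 (adjusted p from 0.0671 to 0.161), and that of spe-54 also without nhr-45 DMSO replicate 3 or nhr-45 antimycin replicate 3 (0.0522 and 0.0535).

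Antimycin in nhr-178 mutants gave 2 higher calls, msp-57 and msp-76, and no lower call, where 2.05% of all tested genes were called higher and 0.656% lower. msp-57 rose by 2.22 ± 0.57 on the log2 scale (SE, edgeR adjusted p = 0.0277). msp-76 went from 2 counts in DMSO to 30 in antimycin, a ratio of 12.5 with an exact 95% interval of 3.17 to 108 from the counts (edgeR adjusted p = 0.0177). msp-64 narrowly missed the threshold at 1.85 ± 0.52 (adjusted p = 0.0502), while msp-51 stood at 0.08 ± 0.87 (adjusted p = 0.992). The calls rested on few counts: none was left without nhr-178 DMSO replicate 1, nhr-178 DMSO replicate 3 or nhr-178 antimycin replicate 2, 1 without nhr-178 antimycin replicate 1, and 4 were made without nhr-178 DMSO replicate 2. msp-57 then had edgeR adjusted p of 0.141, 0.134, 0.130 and 0.0615 without the first 4 of these libraries.

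In DMSO, the nhr-45 mutant was compared with WT to ask what the strain changes without the inhibitor. There were 10 higher calls, 9 msp genes and nspd-9, and no lower call, where 0.719% of all tested genes were called higher and 0.82% lower. All 10 are among the 25 members that pass the filter without the nhr-45 antimycin libraries. That filter still used the nhr-45 DMSO libraries, in which these members were high. Whether they would pass without nhr-45 DMSO as well was not tested, and the same holds for spe-46. msp-57 was higher by 2.40 ± 0.32 on the log2 scale (SE, edgeR adjusted p = 2.09e-05), msp-40 by 2.74 ± 0.37 (adjusted p = 2.94e-05) and msp-51 by 3.09 ± 0.51 (adjusted p = 0.000557). The smallest called difference was msp-76 at 1.84 ± 0.36 (edgeR adjusted p = 0.00358). nspd-9 was higher by 2.67 ± 0.57 (adjusted p = 0.00941), and spe-46, at 2.57 ± 0.71, was not called (adjusted p = 0.0696). All 23 tested msp genes had a log2 difference above 0, with a median of 2.08 beside 0.019 over all genes. Without WT DMSO replicate 2, the library with the lowest WT msp sum, 5 members were called. The calls of msp-78, msp-55 and nspd-9 were each lost without 1 or more libraries: msp-78 without WT DMSO replicate 1 or 2 or nhr-45 DMSO replicate 3 (edgeR adjusted p of 0.125, 0.123 and 0.146), msp-55 without WT DMSO replicate 2 or nhr-45 DMSO replicate 3 (0.0609 and 0.0579), and nspd-9 without WT DMSO replicate 2 or 3 or nhr-45 DMSO replicate 2 (0.0779, 0.0700 and 0.0841).

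The nhr-178 mutant in DMSO went the other way. There were 6 lower calls against WT and no higher call, all of them msp genes: msp-57, msp-64, msp-76, msp-59, msp-81 and msp-55. Over all tested genes 0.974% were called lower and 0.173% higher. msp-57 was lower by a log2 difference of -3.09 ± 0.52 (SE, edgeR adjusted p = 0.000759), an 8.70-fold lower level from 14 counts against 179. msp-64 was lower at -2.30 ± 0.48 (adjusted p = 0.0112). msp-55 had 1 count in nhr-178 DMSO and 32 in WT DMSO, a ratio of 21.8 with an exact 95% interval of 3.64 to 887 (edgeR adjusted p = 0.0261). That interval covers counting error only. Members with no count in nhr-178 DMSO can only be given as bounds: ssp-16 was at least 2.49-fold lower than in WT and nspd-2 at least 2.72-fold lower, with 3 counts over the group as the floor, and neither was called. None of the 23 tested msp genes had a log2 difference above 0, the median being -3.07 by the edgeR fit. By the ratio of pooled group levels it was -2.24, with a group at 0 set to 3 counts. Members with 3 counts or fewer in both groups were left out of that ratio.

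The count of 6 depended on single libraries: 3 members were called without WT DMSO replicate 1 or nhr-178 DMSO replicate 3, and 2 without nhr-178 DMSO replicate 1, the library with 3 msp counts. msp-57 and msp-76 were called under every alternative that tested them, with highest adjusted p of 0.0118 and 0.0384. msp-55 was lost without any 1 of WT DMSO replicate 1 or 3 or the 3 nhr-178 DMSO libraries (edgeR adjusted p up to 0.132). msp-59 was lost without WT DMSO replicate 1 or nhr-178 DMSO replicate 1 or 3 (0.0576, 0.0821 and 0.102), and msp-64 without WT DMSO replicate 3 or nhr-178 DMSO replicate 1 (0.0613 and 0.0719).

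**Figure D3:**
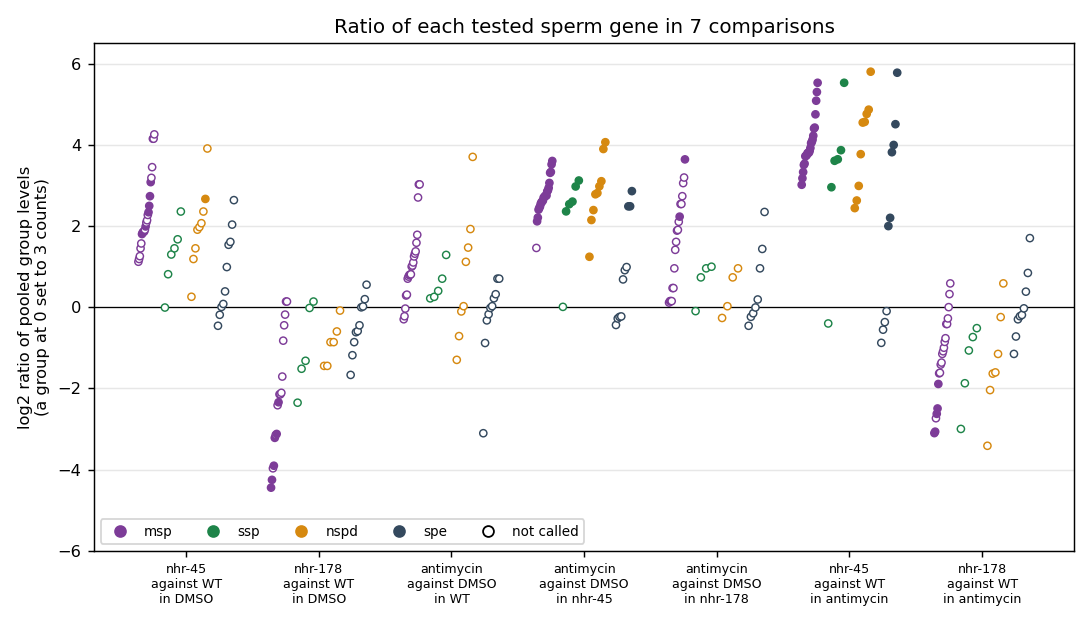
Log2 ratio of the pooled group levels of each of the 48 tested sperm genes in 7 comparisons, by family (purple, msp; green, ssp; orange, nspd; dark grey, spe). A group at 0 was set to 3 counts, and members with 3 counts or fewer in both groups were left out. Filled points were called at an edgeR adjusted p below 0.05. Nearly all msp points are filled and above 0 for antimycin in nhr-45 and for nhr-45 against WT in antimycin, and the filled points of both nhr-178 comparisons with WT are msp genes below 0.

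With antimycin, the mutants differed from WT in the same directions. nhr-45 was higher for 43 of the 48 tested members, with no lower call, where 10.7% of all tested genes were called higher and 4.37% lower. These were 23 of 23 msp, 9 of 9 nspd, 5 of 6 ssp and 6 of 10 spe genes, and 20 of the 25 members that pass the filter without the nhr-45 antimycin libraries. msp-57 was higher by 3.77 ± 0.32 on the log2 scale (SE, edgeR adjusted p = 5.95e-10), msp-40 by 4.07 ± 0.34 (adjusted p = 6.04e-10) and msp-64 by 4.04 ± 0.31 (adjusted p = 8.76e-11). The median of those 25 was 3.67 by the edgeR fit, or 3.54 by the ratio of pooled group levels, beside 0.0097 over all genes by the fit. nspd-5, with 91 counts against none in WT antimycin, was at least 29.2-fold higher (edgeR adjusted p = 0.000117). The 6 spe genes were spe-27, spe-47, spe-4, spe-46, spe-18 and spe-54. spe-47 was higher by 2.05 ± 0.58 (adjusted p = 0.0141) and spe-4 by 2.20 ± 0.59 (adjusted p = 0.00969). The 5 members not called were spe-48, spe-39, spe-44, spe-5 and ssp-37, and these were called in none of the 9 comparisons. spe-48 was called lower here without nhr-45 antimycin replicate 3, by a log2 difference of -1.14 (edgeR adjusted p = 0.0106), and with no filter on low counts, at -0.72 (adjusted p = 0.000778). The call of spe-47 was lost without WT antimycin replicate 1 or nhr-45 antimycin replicate 3 (edgeR adjusted p of 0.0510 and 0.136), and that of spe-4 without WT antimycin replicate 3 (0.0597).

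nhr-178 against WT in antimycin gave 6 lower calls and no higher call, again all msp: msp-57, msp-40, msp-51, msp-59, msp-81 and msp-55. Over all tested genes 2.51% were called lower and 1.12% higher. msp-57 was lower by a log2 difference of -1.99 ± 0.37 (SE, edgeR adjusted p = 0.00114), msp-59 by -3.08 ± 0.56 (adjusted p = 0.000825) and msp-55 by -2.68 ± 0.54 (adjusted p = 0.00303). msp-40, at -1.61 ± 0.45 (adjusted p = 0.0380), was called although its groups overlapped. The calls of msp-40 and msp-51 were each lost without 4 single libraries, with edgeR adjusted p up to 0.242 and 0.127. For msp-40 these were WT antimycin replicate 1 or 2 and nhr-178 antimycin replicate 2 or 3, and for msp-51 WT antimycin replicate 2 or 3 and nhr-178 antimycin replicate 1 or 3. Of the 6, msp-57, msp-59, msp-81 and msp-55 were also called lower in DMSO. The nhr-178 comparisons share their WT libraries with the nhr-45 comparisons in the same medium, so the opposite directions are given side by side and not as separate evidence.

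Whether antimycin acted differently in a mutant than in WT was tested by an interaction term. For nhr-45, the antimycin difference of 5 members lay above that in WT, where 3.39% of all tested genes were called in that direction. They were msp-64 at 2.19 ± 0.44 on the log2 scale (SE, edgeR adjusted p = 0.00260), msp-76 at 1.97 ± 0.50 (adjusted p = 0.0208), msp-59 at 2.30 ± 0.56 (adjusted p = 0.0141), nspd-5 and spe-54. The last 2 were tested only through the nhr-45 antimycin libraries, and in WT their counts went from 8 to 0 and from 14 to 1 with antimycin, a difference that was not called. Among the 25 members that pass the filter without those libraries, 3 were called and the median was 1.54. msp-57 had an interaction of 1.37 ± 0.44 and was not called (adjusted p = 0.0709), but its adjusted p was 0.000601 with no filter on low counts, 0.0422 without both shallow libraries, 0.0305 without WT DMSO replicate 2 and 0.0384 without WT antimycin replicate 1. The count fell to 2 without WT DMSO replicate 1 or 3 and to 3 without WT antimycin replicate 3 or nhr-45 antimycin replicate 3. For nhr-178, no member was called by edgeR, beside 0.264% of all tested genes, or by DESeq2, beside 0.726%. At an unadjusted p below 0.05 there were 10 members, beside 8.25% of all tested genes.

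Other genes of spermatogenesis were called in fewer comparisons than the msp genes. Of 20 further sperm genes listed, 15 were in the table and 8 were tested. With antimycin in nhr-45, 6 of the 8 were called higher, where 15.2% of all tested genes were: the phosphatase genes gsp-3 and gsp-4, smz-1, the small major sperm protein domain gene msd-4 and the sperm chromatin genes spch-1 and spch-3. The same 6 were higher in nhr-45 than in WT in antimycin, where 10.7% of all tested genes were. None of the 8 was called in the other comparisons, and only smz-1 and zipt-7.1 would pass the filter without the nhr-45 antimycin libraries. spch-1 was at 0.559 ± 0.558 CPM in WT DMSO and 9.71 ± 1.99 CPM in nhr-45 antimycin (SD, n = 3). The zinc transporter gene zipt-7.1 was at 281 ± 7.95 CPM in WT DMSO and 211 ± 32.4 CPM in nhr-45 antimycin, and was called in no comparison. Of 6 listed regulators of the sperm fate, 4 were tested. With antimycin in nhr-45, 1 of the 4 was called higher and 2 lower, where 15.2% and 8.33% of all tested genes were. Only 3 of the 4 would pass the filter without the nhr-45 antimycin libraries, and 0 of these 3 were called higher. In nhr-45 against WT in antimycin, 1 of the 4 was called higher and 0 lower, where 10.7% and 4.37% of all tested genes were. alg-4, an Argonaute gene of spermatogenesis, had 55 counts in nhr-45 antimycin and 0 to 2 in each other group. fog-1, which directs germ cells to the sperm fate, was at 70.3 ± 8.77 CPM in WT DMSO and 61.3 ± 15.3 CPM in nhr-45 antimycin and was not called.

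Markers of other cells and stages moved with these genes in part. The 8 markers of male neurons held 6 to 17 counts together in each group and none could be tested. Their sums lay between 0.133 and 1.34 CPM in nhr-45 DMSO and between 0.686 and 3.23 CPM in nhr-45 antimycin. They were 0 to 0.711 CPM in the WT libraries, 0.434 to 0.665 CPM in nhr-178 DMSO and 0.572 to 1.13 CPM in nhr-178 antimycin. The nhr-45 antimycin and nhr-178 antimycin groups held 17 counts each. The defining genes lov-1 and pkd-2 had 1 count each over all 18 libraries. swm-1, a protease inhibitor gene of the male reproductive tract, was at 4.04 ± 1.33 CPM in WT DMSO and 4.72 ± 1.81 CPM in nhr-45 antimycin (SD, n = 3).

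Genes of the late larval moult, whose window overlaps that of spermatogenesis, were higher where msp was highest. Of 10 tested moulting genes, 10 were called higher with antimycin in nhr-45 and 10 in nhr-45 against WT in antimycin, where 15.2% and 10.7% of all tested genes were. Of these 10, 4 would pass the filter without the nhr-45 antimycin libraries. The moulting sum was 38.3 to 50.1 CPM in WT DMSO and 695 to 1386 CPM in nhr-45 antimycin. In WT antimycin it was 52.9 to 96.9 CPM, above WT DMSO. With antimycin in WT, 1 of the 10 was called higher, beside 3.01% of all tested genes in either direction. In nhr-45 DMSO the moulting sum was 32.1 to 77.8 CPM, which overlaps WT DMSO, and none of the 10 was called there, where 9 msp genes were. In nhr-178 DMSO the moulting sum was 26.9 to 34.4 CPM, below WT DMSO, and 1 gene was called lower, where 0.974% of all genes were. In nhr-178 antimycin the moulting sum was 44.4 to 55.3 CPM, above nhr-178 DMSO. None of the 10 was called with antimycin in nhr-178, where 2.05% of all tested genes were called higher and 0.656% lower. Oocyte and eggshell genes went the opposite way in nhr-45 with antimycin, where 13 of 14 were called lower, as were 6 of 6 yolk protein genes and 2 of 10 general germline genes, where 8.33% of all tested genes were. Their sums in nhr-45 antimycin were 7607 to 8762 CPM for oocyte genes, against 11855 to 15108 CPM in WT DMSO, and 2299 to 3151 CPM for yolk, against 6767 to 8749 CPM. In WT antimycin they were 10449 to 10912 CPM and 4703 to 5073 CPM, also below WT DMSO. With antimycin in WT, 0 of 14 oocyte and 2 of 6 yolk genes were called lower, beside 3.01% of all tested genes either way. The oocyte sum was 11739 to 13123 CPM in nhr-178 antimycin and 13374 to 15294 CPM in nhr-178 DMSO. The yolk sums of both nhr-178 groups overlapped. The part of any of these in the sperm gene levels was not tested.

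**Figure D4:**
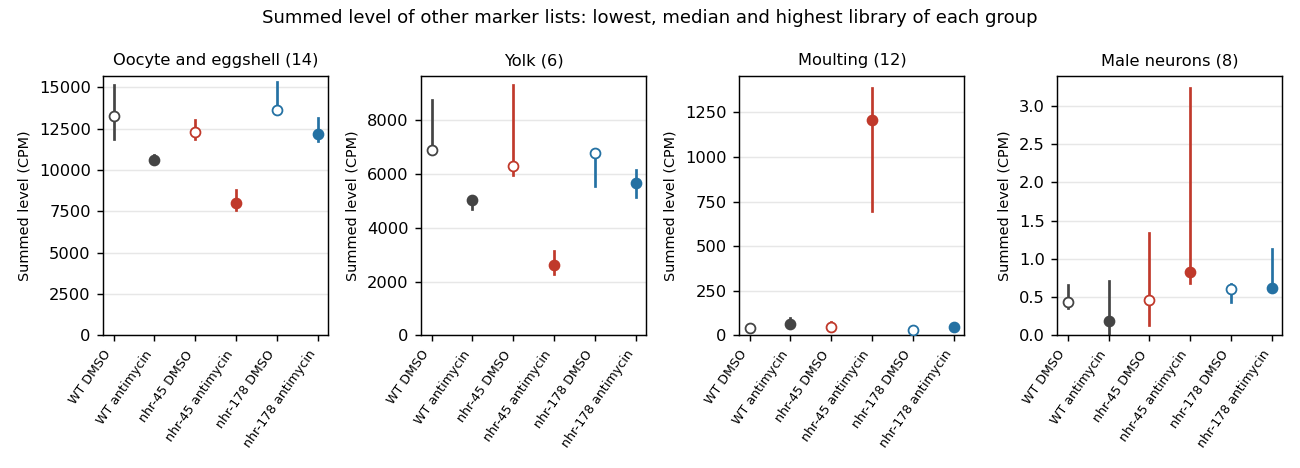
Summed level (CPM, linear axes from 0) of 14 oocyte and eggshell genes, 6 yolk genes, 12 moulting genes and 8 male neuron markers in the 6 groups. Points are the middle library and lines run from the lowest to the highest of 3 libraries. Moulting genes stand at 695 to 1386 CPM in nhr-45 antimycin and at 96.9 CPM or less in the other groups, and in nhr-45 antimycin oocyte and yolk sums are lowest, while the male neuron sum stays at or below 3.23 CPM.

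Within the family, likeness to the msp sum was described by Pearson's r of log2(CPM + 1) over the 18 libraries and again over the 15 outside nhr-45 antimycin, which stands far from the rest. msp-57, set against the sum of the other msp genes, had r of 0.992 and 0.984. ssp-16 had 0.862 and 0.746, nspd-2 had 0.897 and 0.814, and spe-18 had 0.872 and 0.733. ssp-37 had 0.289 and 0.414, and spe-48 had -0.496 and -0.346. Of the genes outside the set, the 10 most alike were the cuticle collagen genes col-142, col-159, col-129 and col-139 and the genes Y38C1AA.7, F17E9.5, F07H5.7, gipc-2, clc-10 and 21ur-13321, with r from 0.933 to 0.963 over 18 libraries and from 0.849 to 0.935 over 15. col-142 was at 438 CPM in WT DMSO and 2972 CPM in nhr-45 antimycin, and F17E9.5 at 4.40 and 143 CPM. The 3 libraries of a group share their strain and medium and are not independent of each other in r, so r describes the libraries only.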

How the data were processed

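RNA-seq of 18 whole-animal samples was analysed from 1 table of gene counts. The deposited counts are whole numbers per WormBase gene, not normalised. Per the submitters' processing notes, Bowtie2, RSEM, DESeq2 and R 3.6.3 were used, with no role stated. The sources used here do not give the genome build or how reads that match several msp copies were handled. Symbols, positions and exon lengths were joined by WormBase ID from the Ensembl WBcel235 annotation (23363 of 23368 genes had a position). Strand use in counting is not given, so genes with overlapping exons are uncertain.

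Counts were tested with edgeR 4.0.16 in R 4.3.3: TMM scaling, filterByExpr by group (10981 genes kept), a quasi-likelihood fit of 1 mean per group over all 18 libraries (biological coefficient of variation 17.1%, 12 residual degrees of freedom), and Benjamini-Hochberg adjustment over all tested genes, called below 0.05. The SE is the log2 difference divided by the square root of F. Positive values mean the first group named is higher. Fitted values of genes with a group at 0 depend on the prior count and are no bounds. Ratios with 1 to 3 counts in a group carry an exact 95% binomial interval, and the floor for a group at 0 is 3 counts over the group. These intervals use counts pooled over the libraries of a group, so they leave out the spread between libraries. The method was tested on simulated data. DESeq2 1.42.0, other scalings and filters, the replicate number as a block, and leaving out libraries were tried as alternatives. No replicate pair agreed within sampling noise.

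The members, gene lists and tests were chosen with earlier results of these data known. Genes were named by rule: the highest of each family by mean CPM, the called members with the largest and smallest change in each comparison, the highest of each spe role, spe-9, spe-11 and spe-44, and the 10 genes most like the msp sum. Others, such as msp-3, msp-142, msp-152 and single genes of the marker lists, were named after their values were seen. No sequences were analysed here.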

Additional observations from a re-analysis of the deposited data

Results flagged for a closer look

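In 5 sperm genes the antimycin response differed between nhr-45 and WT by a test of the difference itself, the interaction term of edgeR's quasi-likelihood fit over all tested genes. Each value is the log2 difference between antimycin and DMSO in nhr-45 minus that in WT. Of the 5, nspd-5 and spe-54 passed the filter on low counts only through nhr-45 antimycin, so 3 of the 25 members that pass without it were called. It was 2.19 for msp-64 (SE 0.44, adjusted p = 0.00260), 1.97 for msp-76 (SE 0.50, adjusted p = 0.0208) and 2.30 for msp-59 (SE 0.56, adjusted p = 0.0141). For msp-64 the levels were 2.60 CPM in WT DMSO, 3.49 in WT antimycin, 9.68 in nhr-45 DMSO and 55.9 CPM in nhr-45 antimycin. The fitted 8.13 for nspd-5 (SE 1.99, adjusted p = 0.0180) rests on 0 counts in WT antimycin against 8 in WT DMSO and is no measure of size. The value of 5.61 for spe-54 (SE 1.55, adjusted p = 0.0363) rests on 1 count in WT antimycin against 14 in WT DMSO. Over 21 alternatives msp-64 kept its call, and msp-76 and msp-59 lost theirs under 3 each, all leaving out 1 library (msp-76 without WT DMSO replicate 1 or 3 or nhr-45 antimycin replicate 3, msp-59 without WT DMSO replicate 1 or 3 or WT antimycin replicate 3, adjusted p from 0.0506 to 0.0964). nspd-5 lost its call under 2 of 19 and spe-54 under 11 of 19, with adjusted p up to 0.0635 and 0.122. Groups of 3 libraries were not searched for single outlying libraries.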

How the results depend on the processing

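Another scaling (DESeq2 size factors, or library size alone) left every count of called members within 1.5 times, and no named call turned its direction under any alternative run. Of 66 named calls, 46 were kept under every alternative that tested the gene. Both counts include genes tested only through the nhr-45 antimycin libraries, such as ssp-16, nspd-5 and spe-18. The stricter filter and the filter from 15 libraries left these genes untested, so their calls could not be lost there. With no filter on low counts, 4 members were called for antimycin in WT, 7 for antimycin in nhr-178, 16 for nhr-45 and 10 for nhr-178 against WT in DMSO, and 9 for the nhr-45 interaction. A stricter filter of a mean of 5 CPM left 14 members, of which 10 were called for antimycin in nhr-45, 10 for nhr-45 against WT in antimycin and 3 for the nhr-45 interaction. Fitting only the groups compared left 1 call for antimycin in nhr-178 and 1 for nhr-178 against WT in DMSO, where 7 and 8 members passed the filter. DESeq2 called 2 members for antimycin in WT and 4 in nhr-178. A filter taken from the 15 libraries outside nhr-45 antimycin, chosen after seeing the data, left 25 members, with 17, 20 and 3 calls for antimycin in nhr-45, nhr-45 against WT in antimycin and the nhr-45 interaction.

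Leaving out each library in turn gave 0 to 2 calls for antimycin in WT, 29 to 40 in nhr-45 and 0 to 4 in nhr-178. It gave 5 to 13 for nhr-45 and 2 to 7 for nhr-178 against WT in DMSO, 42 to 46 and 4 to 7 in antimycin, 2 to 7 for the nhr-45 interaction and 0 to 0 for the nhr-178 interaction. The log2 ratio of the msp sums ranged from 0.80 to 1.27 for antimycin in WT, 2.43 to 2.72 in nhr-45 and 1.798 to 3.57 in nhr-178, from 1.98 to 2.46 and -4.22 to -2.45 for nhr-45 and nhr-178 against WT in DMSO, and from 3.62 to 3.92 and -2.02 to -1.47 in antimycin.

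The groups share replicate numbers. The 45 same-numbered pairs of libraries from different groups had correlations of their deviations from -0.0858 to 0.0872, none over 0.1, so the numbers were not taken as pairs. With the number as a block, the counts were 0, 38 and 2 for antimycin in WT, nhr-45 and nhr-178, 10 and 6 in DMSO, 43 and 6 in antimycin, and 5 and 0 for the interactions, and no named call changed. Depth limits the 32 untested members and every value of nhr-178 DMSO, whose msp genes rest on 65 counts.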
